A study of Homo sapiens with 8 samples.

Results

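Keratins of luminal and basal epithelium were followed in prostate cancer cells: 10 named genes (KRT5, KRT7, KRT8, KRT10, KRT13, KRT14, KRT15, KRT18, KRT19 and KRT80) of the 57905 genes in the deposited count table, each matched to its symbol by Ensembl identifier. The set was chosen by name, with KRT7 and KRT80 selected on their lower counts with YAP1 siRNA, so every value of these 10 genes in that contrast is a description and carries no test. RNA sequencing had been done on 8 libraries of human cell lines. EnzaR is a line labelled as resistant to the antiandrogen enzalutamide and was grown in 10 uM of the drug, which its control libraries share. EnzaR cells received siRNA against YAP1 (siYAP1, 2 libraries) or control siRNA (siNC, 2 libraries), each at 40 nM for 48 h. LNCaP, labelled as enzalutamide-sensitive, received for 48 h extracellular vesicles (EVs) from EnzaR cells depleted of YAP1 (EV-siYAP1) or of COUP-TFII (EV-siCII) or given control siRNA (EV-siNC), or was a vehicle control without vesicles, with 1 library each. The labels give neither the parent line of EnzaR nor separate cultures for the replicates, so a p-value here reflects how these libraries vary, and that variation may be technical.

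Keratins are the intermediate filament proteins of epithelia. A type I and a type II keratin bind each other side by side, and filaments are built from such pairs. In the prostate, KRT8 (type II) and KRT18 (type I) mark luminal secretory cells, KRT5 (type II), KRT14 and KRT15 (type I) mark basal cells, and KRT19 and KRT7 are found in intermediate or ductal epithelium. KRT10 and KRT13 are type I keratins of stratified epithelia, and KRT80 is a type II keratin of differentiating epithelia. YAP1 is the co-activator that Hippo signalling restrains, and it acts on genes mainly through TEAD factors.

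The 10 genes share a coding stretch at the end of the central rod, the helix termination motif, and it is printed for 5 of them because it shows how a type II and several type I keratins differ at a site that all keratins need to build filaments. Each stretch has 45 bases, lies within a single coding exon, and is given 5′ to 3′ on the coding strand from GENCODE release 29 (GRCh38). The capitals mark the 30 bases of the motif itself.
KRT5 (type II, chr12:52516651-52516695, minus strand): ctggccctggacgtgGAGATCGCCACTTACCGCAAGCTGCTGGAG
KRT18 (type I, chr12:52952281-52952325, plus strand): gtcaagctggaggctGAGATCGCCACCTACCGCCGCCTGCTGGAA
KRT19 (type I, chr17:41523791-41523835, minus strand): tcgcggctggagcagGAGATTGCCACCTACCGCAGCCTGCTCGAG
KRT14 (type I, chr17:41583249-41583293, minus strand): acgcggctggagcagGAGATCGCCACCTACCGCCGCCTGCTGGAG
KRT10 (type I, chr17:40819528-40819572, minus strand): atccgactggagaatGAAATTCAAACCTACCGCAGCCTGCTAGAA

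Over whole coding sequences of all 10 genes, identity ran from 68.23% to 77.67% for the 6 pairs of type II genes, from 66.61% to 83% for the 15 pairs of type I genes and from 61.78% to 69.37% for the 24 mixed pairs. KRT80 was 69.64% identical to KRT8 and 68.23% to KRT7. Reads that fall wholly in such a stretch could be placed on a relative, and the part of this in the counts was not tested. KRT8 and KRT18 also have many processed copies in the genome: 34 of 50 annotated KRT8 copies aligned over at least 90% of the coding sequence, at 80.87% to 97.1% identity, and 55 of 67 KRT18 copies at 82.05% to 95.86%. Rows of KRT8 copies held reads equal to 0.949% to 1.83% of the KRT8 count in a library, mostly KRT8P12 (151 to 194 counts), and rows of KRT18 copies 0.169% to 0.440% of the KRT18 count. Reads of the parents that were lost to or shared with the copies were not measured, so the levels of KRT8 and KRT18 are uncertain.

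Total counts were 16682669 to 18248939 per library, so 3 counts, the upper limit that a count of 0 allows, stood for 0.160 to 0.198 CPM (counts scaled to library totals that were adjusted by TMM factors). Such limits cover counting error only. YAP1 itself was at 6.0 and 7.33 CPM in siYAP1 libraries and at 59.6 and 49.0 CPM in siNC libraries (log2 fold change -3.02, SE 0.154, edgeR adjusted p = 2.07e-10), and at 58.8 to 67.3 CPM in LNCaP libraries. The luminal markers KRT8, KRT18, KLK3 and HOXB13 each had at least 774 counts in every library. The basal master regulator TP63 and the leukocyte marker PTPRC had 0 counts in all 8 libraries. The 6 fibroblast genes summed to 20.8 to 26.8 CPM in siYAP1, 19.4 to 23.0 CPM in siNC and 105 to 122 CPM in LNCaP libraries, mostly COL1A1. COL3A1, COL1A2, DCN and LUM had 58, 6, 7 and 6 counts in siYAP1 replicate 2 and 0 in the other 3 EnzaR libraries. Their part in the keratin values was not tested.

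The lines were luminal in their keratins. On the scale of the deposited FPKM values, which divide reads by gene length and library total, KRT8 and KRT18 together made up 93.3% to 95.0% of the FPKM of all 55 keratin genes in EnzaR and 95.5% to 96.4% in LNCaP. KRT18 was at 189 and 177 FPKM in siYAP1, 169 and 159 in siNC, and 175, 195, 180 and 198 in EV-siYAP1, EV-siCII, EV-siNC and control. KRT8 stood at 151 and 143 FPKM in siYAP1, 135 and 139 in siNC, and 217, 250, 231 and 267 in EV-siYAP1, EV-siCII, EV-siNC and control. KRT18 was therefore above KRT8 on this scale in each EnzaR library and below it in each LNCaP library. In counts KRT8 was above KRT18 in every library, at 12212 to 12988 against 9323 to 10291 in EnzaR. The order in EnzaR thus rests on the exonic lengths used, 5005 bases for KRT8 and 3218 for KRT18. KRT10 came next, at 13.9 to 17.5 FPKM in EnzaR and 11.3 to 13.7 FPKM in LNCaP libraries. KRT80, KRT19 and KRT7 were near or under 2 FPKM. Their order was not the same throughout: KRT80 was below KRT19 in both siYAP1 libraries (0.33 and 0.41 against 1.00 and 0.97 FPKM) and above it in both siNC libraries (1.46 and 1.46 against 1.40 and 1.27 FPKM). In LNCaP it was below KRT19 in EV-siYAP1 (1.15 against 1.37 FPKM) and above it in EV-siCII, EV-siNC and control. The siYAP1 values are those by which KRT80 was chosen.

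**Figure D1:**
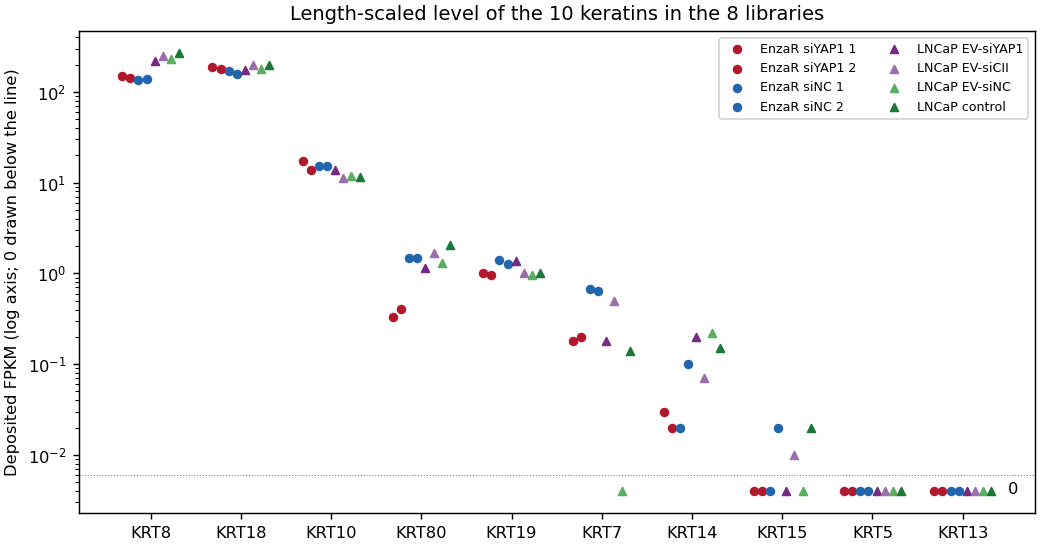
Deposited FPKM of the 10 keratins (x axis) on a log axis, with 1 point per library, circles for EnzaR and triangles for LNCaP, and values of 0 drawn below the dotted line. KRT8 and KRT18 lie between 135 and 267 FPKM in all libraries, while KRT5 and KRT13 are at 0.

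The basal and stratified keratins were nearly or wholly unread. KRT5 and KRT13 had 0 counts in all 8 libraries. KRT15 had 0 and 0 counts in siYAP1, 0 and 2 in siNC, and 0, 1, 0 and 2 in EV-siYAP1, EV-siCII, EV-siNC and control. KRT14, the type I partner of KRT5, had 1 and 1 counts in siYAP1, 1 and 4 in siNC, and 8, 3, 9 and 6 in the same order of LNCaP libraries. These 4 genes had under 10 counts in every library and did not pass the filter on low counts, which the other 6 of the 10 passed in both fits. KRT14 was at 1 to 4 counts in EnzaR and at 3 to 9 counts in LNCaP libraries, ranges that overlap, and no test was made. KRT10 was the exception among keratins of stratified epithelia, but its row overlaps KRT10-AS1 on the opposite strand, which held 422 to 687 counts per library, and the strand setting of the counting is not given in the sources used here.

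YAP1 depletion was compared with control siRNA in EnzaR cells to ask which transcripts follow YAP1. KRT80 had 24 and 32 counts (1.58 and 1.86 CPM) in siYAP1 libraries, against 115 and 116 counts (6.29 and 6.41 CPM) in siNC libraries. Both siYAP1 libraries were far below both siNC libraries. Its mean was 1.72 ± 0.197 CPM in siYAP1 and 6.35 ± 0.084 CPM in siNC (SD, n = 2 each), a log2 fold change of -1.88 (SE 0.26), and 0.120% of the 14948 genes tested had a lower value. KRT7 had 12 and 15 counts (0.79 and 0.87 CPM) in siYAP1 libraries, against 50 and 48 counts (2.74 and 2.65 CPM) in siNC libraries. The groups again did not overlap, and the mean was 0.832 ± 0.058 CPM in siYAP1 and 2.69 ± 0.059 CPM in siNC (SD, n = 2 each), a log2 fold change of -1.69 (SE 0.38), with 0.194% of genes lower. These are the differences by which the pair was chosen. In bulk RNA, fewer cells with a transcript and less of it per cell cannot be told apart. Over all genes 6.22% were called lower and 5.83% higher (edgeR, adjusted p under 0.05).

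The other 4 keratins above the filter differed less in that contrast. KRT8 was at 830 and 755 CPM in siYAP1 and at 668 and 704 CPM in siNC libraries (log2 fold change 0.20, SE 0.098). KRT18, its partner, was at 669 and 599 CPM in siYAP1 and at 536 and 515 CPM in siNC libraries (0.26, SE 0.097). For both genes the lower siYAP1 library was still above the higher siNC library. The share of all genes separated in this way is not given here, so the separation is a description. KRT19, the smallest keratin of simple and intermediate epithelium, was at 2.57 and 2.39 CPM in siYAP1 and at 3.23 and 2.99 CPM in siNC libraries, from 39 to 59 counts (-0.33, SE 0.29). KRT10 was at 40.8 and 31.2 CPM in siYAP1 and at 32.0 and 32.9 CPM in siNC libraries, and here the groups overlapped. Its log2 fold change was 0.14 with all libraries and -0.07 without siYAP1 replicate 1, the EnzaR library in which KRT8, KRT10 and KRT18 were all highest. Scaled by library totals alone, the median of all genes shifted by -0.10, and KRT8 and KRT18 had log2 fold changes of 0.10 and 0.16.

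**Figure D2:**
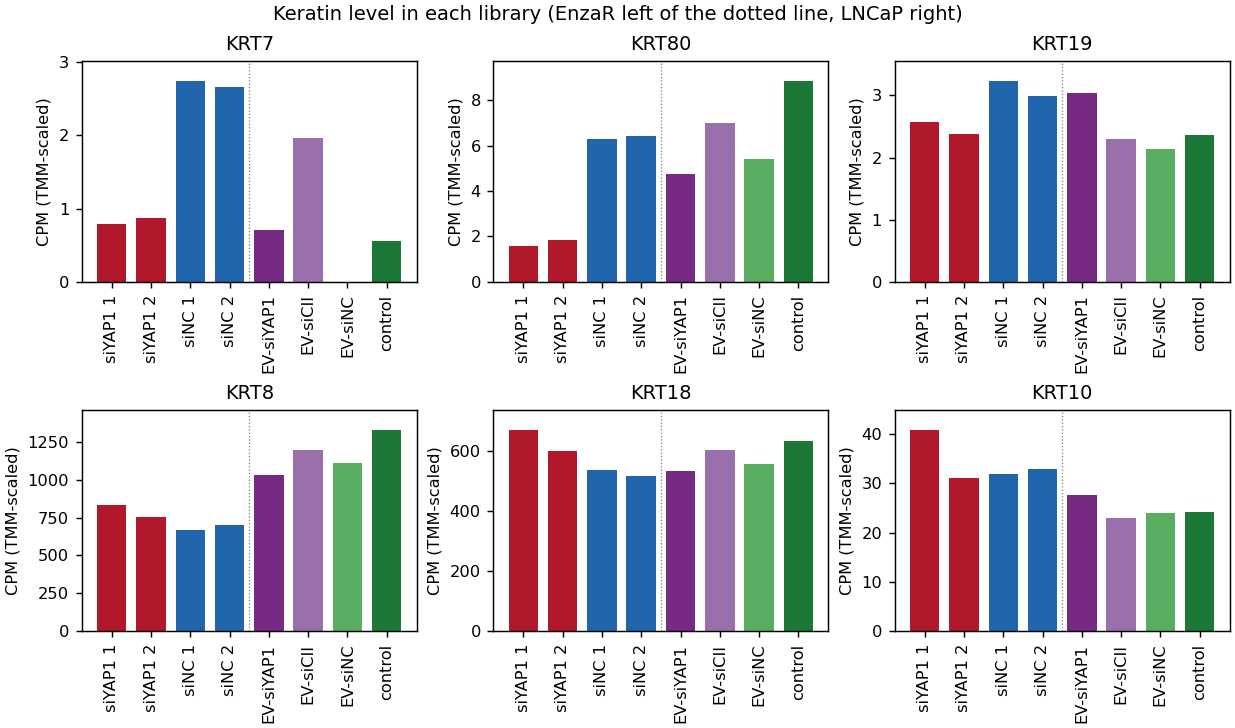
TMM-scaled CPM of the 6 keratins that passed the filter on low counts, 1 bar per library, on a separate linear axis from 0 for each gene. KRT7 and KRT80 are low in both siYAP1 libraries, and KRT7 has no bar in EV-siNC, where it had 0 counts.

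The KRT7 locus also holds overlapping rows with few reads. The antisense gene KRT7-AS had 0 and 0 counts in siYAP1 and 12 and 5 in siNC libraries, and the hair keratin gene KRT86, which overlaps the end of KRT7 on the same strand, had 0 and 2 in siYAP1 and 5 and 5 in siNC libraries. Without strand, reads of KRT7 and KRT7-AS cannot be told apart. KRT87P, a keratin pseudogene there, had 1 and 5 counts in siYAP1 and 6 and 6 in siNC libraries. KRT80 overlaps no other gene in the table (chromosome 12, 52562780 to 52585784, hg19), and KRT7 lies at 52626304 to 52645970 on that chromosome, within the type II keratin cluster.

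EnzaR cells given control siRNA were compared with the LNCaP vehicle control to ask how the keratins differ between the lines. This contrast did not choose the members, but it shares the 2 siNC libraries with the contrast that did. KRT7 and KRT80 were selected for counts that were higher in those siNC libraries than in siYAP1. Their values and p-values between the lines are therefore not independent of that choice. Line, drug and transfection differ together here and cannot be told apart. With 1 LNCaP control library, its spread was assumed to be that of the EnzaR replicates. Over 17537 genes 58.4% were called (edgeR, adjusted p under 0.05), 29.8% higher and 28.6% lower in EnzaR, and of the 6 keratins tested 2 were called higher and 1 lower. That share is near the background.

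KRT8 was lower in EnzaR, at 668 and 704 CPM in siNC libraries, against 1327 CPM in the LNCaP control. The log2 fold change was -0.95 (SE 0.113, edgeR adjusted p = 6.16e-08), and the call was kept in all 12 alternatives, between -0.99 and -0.55. All 4 EnzaR libraries, at 668 to 830 CPM, were below all 4 LNCaP libraries, at 1029 to 1327 CPM. How many of all genes separate the lines in this way is not given here, and 58.4% were called in this contrast. Its partner KRT18 was at 536 and 515 CPM in siNC libraries and at 632 CPM in the control, a log2 fold change of -0.27 (SE 0.116) that did not pass (edgeR adjusted p = 0.0508, range over the alternatives 0.0286 to 0.933). The ratio of KRT8 to KRT18 FPKM was 0.799 and 0.811 in siYAP1, 0.802 and 0.878 in siNC, and 1.24, 1.28, 1.28 and 1.35 in EV-siYAP1, EV-siCII, EV-siNC and control. The ranges of the lines did not overlap, and this difference was not tested. The annotated spans of KRT8 (chromosome 12, 53290977 to 53343738, minus strand, hg19) and KRT18 (53342655 to 53346685, plus strand) overlap at their ends.

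**Figure D3:**
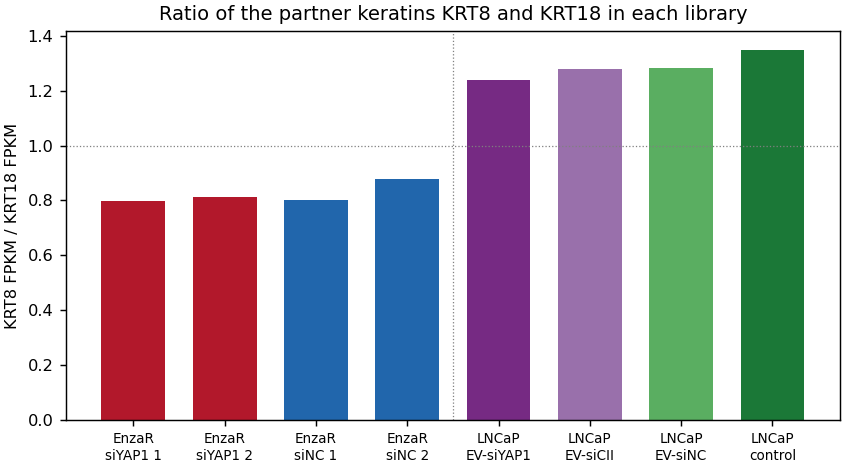
Ratio of KRT8 to KRT18 FPKM (y axis) in each library, EnzaR left of the dotted line and LNCaP right of it. EnzaR bars lie between 0.799 and 0.878 and LNCaP bars between 1.24 and 1.35. Their position relative to a ratio of 1 depends on the gene lengths used.

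KRT7 was higher in EnzaR, with 50 and 48 counts (2.74 and 2.65 CPM) in siNC libraries, against 10 counts (0.563 CPM) in the LNCaP control. The log2 fold change was 2.25 (SE 0.562, edgeR adjusted p = 0.00127). With DESeq2 the value was 2.22 and did not pass (adjusted p = 0.0625, range over the alternatives 1.7e-06 to 0.0625). Across LNCaP libraries KRT7 ran from 0 to 1.97 CPM, so the siYAP1 libraries, at 0.79 and 0.87 CPM, lay inside the LNCaP range and the siNC libraries above it. The siNC counts of KRT7 also entered its selection, so its adjusted p between the lines is no independent test. KRT10 was at 32.0 and 32.9 CPM in siNC libraries and at 24.2 CPM in the control, a log2 fold change of 0.42 (SE 0.17, edgeR adjusted p = 0.0354). That call was lost without siNC replicate 2 (adjusted p = 0.0607), with DESeq2 size factors (0.0555) and with DESeq2 (0.223), and the overlapping KRT10-AS1 was lower in EnzaR by the same test (-0.51, SE 0.172, adjusted p = 0.0129, not passed with DESeq2 or the replicate block).

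KRT80 and KRT19 did not pass between the lines. KRT80 was at 6.29 and 6.41 CPM in siNC libraries and at 8.83 CPM in the control (log2 fold change -0.48, SE 0.256, edgeR adjusted p = 0.115). Against EV-siNC in place of the control its sign turned (0.24, adjusted p = 0.475), and the 4 LNCaP libraries, at 4.76 to 8.83 CPM, spanned the siNC values. The siYAP1 libraries, at 1.58 and 1.86 CPM, lay below every LNCaP library. KRT19 was at 3.23 and 2.99 CPM in siNC libraries and at 2.36 CPM in the control (0.39, SE 0.37, edgeR adjusted p = 0.375).

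**Figure D4:**
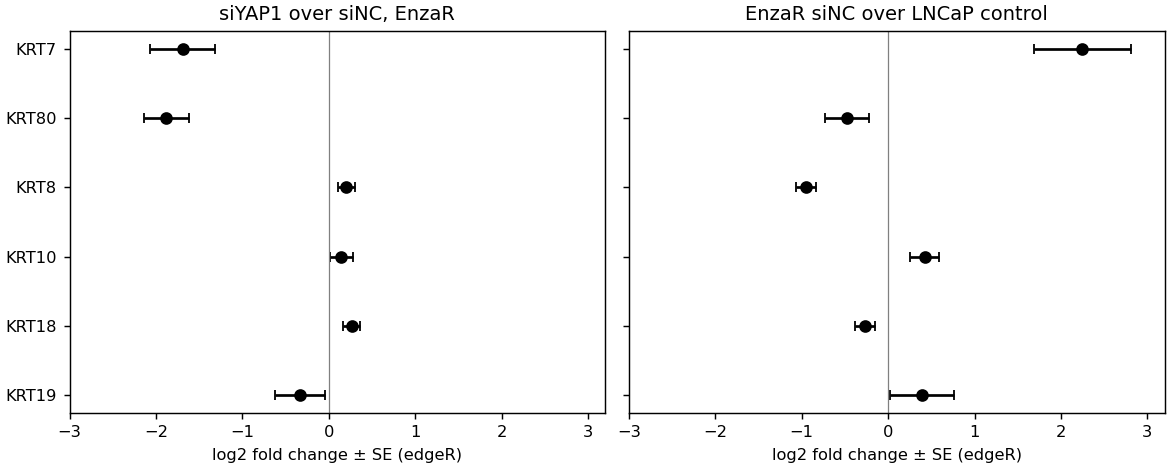
Log2 fold change with its SE (edgeR) of the 6 keratins that passed the filter, in siYAP1 over siNC (left, a description without a test) and in EnzaR siNC over LNCaP control (right). KRT7 and KRT80 are at -1.69 and -1.88 on the left, and KRT7 at 2.25 and KRT8 at -0.95 on the right.

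The LNCaP libraries were compared to ask what vesicles do to the recipient cells. With 1 library per group there was nothing to test, and the 95% limits given are exact ones that cover counting error alone. The vesicle contrasts share the EV-siNC library. Only KRT8, KRT10 and KRT18 reached 10 CPM, the floor used for calls past 1.5-fold, and none of these 3 passed it in any contrast. In EV-siYAP1 against EV-siNC 0.243% of genes passed it upward and 0.398% downward. In EV-siCII against EV-siNC the shares were 0.0669% and 0.413%, and in EV-siNC against control 2.91% and 0.223%.

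KRT8 was at 1029 CPM in EV-siYAP1, 1197 in EV-siCII, 1111 in EV-siNC and 1327 in control. The log2 ratio was -0.26 in EV-siNC over control (interval -0.28 to -0.23), -0.11 in EV-siYAP1 over EV-siNC (-0.14 to -0.08) and 0.11 in EV-siCII over EV-siNC (0.08 to 0.14). KRT18 followed the same order of libraries, at 534, 602, 556 and 632 CPM, with log2 ratios of -0.19, -0.06 and 0.12 in those 3 contrasts. Both luminal keratins were thus highest in the control and lowest in EV-siYAP1. In EV-siNC over control, library totals gave -0.21 for KRT8 and -0.13 for KRT18, and the GC and length correction -0.18 and -0.09. These values lie outside the intervals for counting error, so the size depends on the scaling. KRT10 was at 27.7 CPM in EV-siYAP1, 23.0 in EV-siCII, 24.0 in EV-siNC and 24.2 in control, and its interval excluded 0 in EV-siYAP1 over EV-siNC alone (0.21, 0.02 to 0.39).

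KRT80 had 88 counts in EV-siYAP1, 128 in EV-siCII, 101 in EV-siNC and 157 in control. It was lower in EV-siNC than in control by more than counting error (log2 ratio -0.70, interval -1.09 to -0.34). The intervals of EV-siYAP1 over EV-siNC (-0.17, -0.61 to 0.25) and of EV-siCII over EV-siNC (0.37, -0.01 to 0.77) included 0. KRT19 had 56, 42, 40 and 42 counts in the same order of libraries, and all 3 of its intervals included 0. KRT7 varied most, with 13 counts in EV-siYAP1, 36 in EV-siCII, 0 in EV-siNC and 10 in control. The exact 95% limits placed its log2 ratio at 3.24 or more in EV-siCII over EV-siNC, at 1.63 or more in EV-siYAP1 over EV-siNC and at -1.24 or less in EV-siNC over control. No other gene had 0 counts in EV-siNC and 36 or more in EV-siCII, among 13268 genes that reached 36 in either library. The cut of 36 is the KRT7 count itself in EV-siCII, so this is a description and no test. Between the siYAP1 replicates 2 genes showed a gap of that size and between the siNC replicates 0 did. Those 2 were VIM and COL3A1, with 36 and 58 counts in siYAP1 replicate 2 and 0 in replicate 1. EV-siNC had 4 genes at 0 counts that reached 36 in control.

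Of the other keratins, all 23 type I and 22 type II genes on the list were matched, and 13 and 11 of them had 0 counts everywhere. In the siYAP1 contrast 1 of each type could be tested and 0 were called (edgeR, adjusted p under 0.05), also 0 at an unadjusted p under 0.05 and 0 with DESeq2. KRT20, a type I keratin of gut and urothelium, had 20 and 16 counts in siYAP1 and 25 and 25 in siNC libraries (edgeR adjusted p = 0.669). KRT75, a type II keratin of the hair follicle, had 37 and 25 counts in siYAP1 and 31 and 39 in siNC libraries (edgeR adjusted p = 0.998). Between the lines KRT75 was higher in EnzaR, where siNC libraries had 31 and 39 counts and the LNCaP control 8 (log2 fold change 2.08, SE 0.658, edgeR adjusted p = 0.00853, and 0.128 with DESeq2). KRT6C went the other way, with 0 and 0 counts in siNC libraries, against 46 in the LNCaP control, and was called lower in EnzaR (edgeR adjusted p = 7.32e-07). It had 1 and 4 counts in siYAP1 and 19 to 46 in LNCaP libraries, and is uncertain because KRT6A and KRT6B are near-identical copies.

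Desmosomes tie keratin filaments to the cell border. Of 15 tested desmosome and keratin-anchor genes, 5 were called lower and 0 higher in siYAP1 (edgeR, adjusted p under 0.05; 1 higher at an unadjusted p under 0.05 and 0 with DESeq2), beside 6.22% and 5.83% of all genes. Their median log2 fold change was -0.29, against -0.03 over all genes. DSP, the plaque protein that binds keratin, was at 77.9 and 98.0 CPM in siYAP1 and at 130 and 129 CPM in siNC libraries (-0.56, SE 0.109, edgeR adjusted p = 0.00437). DST, which anchors keratin at hemidesmosomes, was at 5.93 and 7.91 CPM in siYAP1 and at 10.6 and 13.2 CPM in siNC libraries (-0.78, SE 0.199, edgeR adjusted p = 0.0184). The desmosomal cadherin DSG2 fell by 0.41 (SE 0.119) and the plakophilin PKP4 by 0.35 (SE 0.11) on the log2 scale, with edgeR adjusted p = 0.0314 and 0.0429, and PKP4 was called in 3 of 12 alternatives. DSC3, another desmosomal cadherin, was at 0.593 and 0.582 CPM in siYAP1 and at 1.97 and 1.88 CPM in siNC libraries (-1.70, SE 0.435, edgeR adjusted p = 0.0185), and was called in 6 of 12 alternatives. DST and DSG2 were called in 9 of 12 and DSP in 11 of 12. Without siYAP1 replicate 1 the number called lower was 0, without siNC replicate 2 it was 1, and without siYAP1 replicate 2 or siNC replicate 1 it was 3. With values corrected for GC content and gene length it was 1, DSP, and the median was -0.16.

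**Figure D5:**
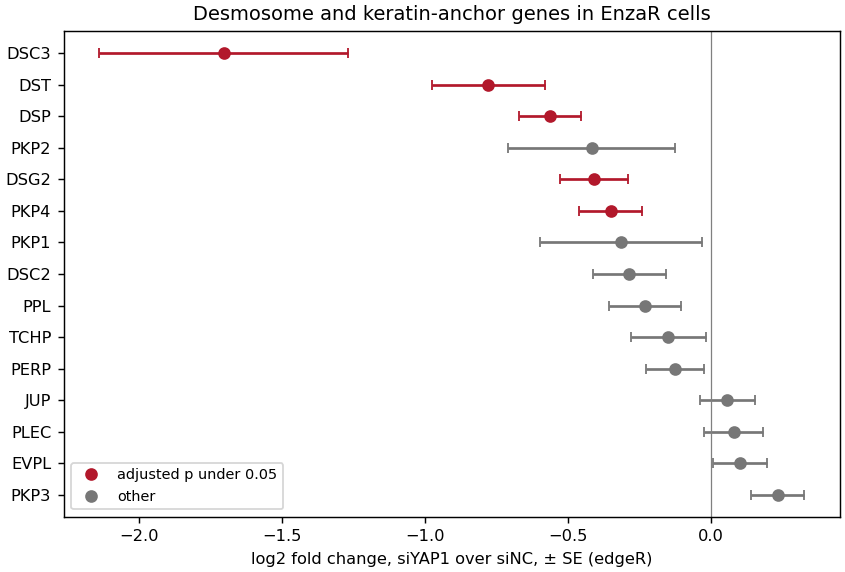
Log2 fold change with its SE (edgeR) in siYAP1 over siNC for the 15 tested desmosome and keratin-anchor genes, with those at an adjusted p under 0.05 in red. The 5 red genes lie between -1.70 and -0.35, and JUP, PLEC, EVPL and PKP3 lie above 0.

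Between the lines 6 of these 15 genes were higher and 6 lower in EnzaR, beside 29.8% and 28.6% of all genes. Their median was -0.11, but 0.13 after the GC and length correction and 0.08 without the filter on low counts. DST (2.13) and PKP4 (1.56) were higher, and the cornified envelope protein PPL (-1.86) and the plakophilin PKP2 (-1.27) were lower. DSP was lower too, at 130 and 129 CPM in siNC libraries, against 276 CPM in the LNCaP control (-1.09, SE 0.123, edgeR adjusted p = 2.86e-08). PLEC, the plectin cross-linker, was at -1.20 and had a value of 0.13 after the GC and length correction.

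Of the other intermediate filament genes, 0 of 7 were called in siYAP1 (edgeR; 1 at an unadjusted p under 0.05, 0 with DESeq2), with a median of 0.12. Over all genes 12.1% were called in siYAP1 in either direction. Between the lines 3 of 8 were higher in EnzaR and 4 lower, beside 29.8% and 28.6% of all genes. VIM, the filament of mesenchymal cells, was at 0.711 and 0.995 CPM in siNC libraries and at 274 CPM in the LNCaP control, with 261 to 285 CPM across LNCaP libraries (edgeR adjusted p = 0.00931). That call was lost without siNC replicate 1 and without siNC replicate 2 (highest adjusted p = 0.203), although the log2 fold change, -8.32 with all libraries, stayed between -9.55 and -8.09. PRPH, a filament of peripheral neurons, was lower in EnzaR (-2.30), and the nuclear lamins LMNB1 (2.06) and LMNB2 (0.91) were higher.

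Among 15 tested regulators of epithelial genes, 1 was called in siYAP1, the ETS factor EHF, at 74.5 and 98.2 CPM, against 128 and 118 CPM in siNC libraries (-0.51, SE 0.116, edgeR adjusted p = 0.0104, not passed without siYAP1 replicate 1, 0.222, or after the GC and length correction). The median of the list was -0.19, and 12.1% of all genes were called in siYAP1 in either direction. Between the lines 5 were higher and 4 lower in EnzaR, beside 29.8% and 28.6% of all genes. The grainyhead factor GRHL2 (1.05) and the zinc finger factor OVOL1 (0.88) were higher and KLF4 was lower (-1.02). EHF was at 0.94, and at 0.25 and not called after the GC and length correction.

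Of the 12 basal markers that are not keratins, 8 were tested in siYAP1. There 1 was called higher and 2 lower, beside 5.83% and 6.22% of all genes. LAMA3, a chain of laminin-332, was at 54.7 and 71.1 CPM in siYAP1 and at 117 and 125 CPM in siNC libraries (-0.95, SE 0.116, edgeR adjusted p = 0.000112) and was called in all 12 alternatives. ITGA6, an integrin of hemidesmosomes, fell by 0.62 on the log2 scale (SE 0.161, edgeR adjusted p = 0.0204), and SFN, the epithelial 14-3-3 protein, rose by 0.54 (SE 0.132, adjusted p = 0.0148), both not passed without siYAP1 replicate 1 or after the GC and length correction, and ITGA6 also not without siNC replicate 1. The summed level of the 15 basal markers was 204 to 214 CPM in siYAP1, 260 to 272 CPM in siNC and 172 to 184 CPM in LNCaP libraries. In EnzaR this sum was mostly LAMA3 and CDH3. LAMA3 averaged 62.9 CPM in siYAP1 and 121 CPM in siNC, and was at 70.3 to 86.5 CPM in LNCaP libraries. CDH3 averaged 68.5 CPM in siYAP1 and 73.3 CPM in siNC, and was at 13.7 to 17.6 CPM in LNCaP libraries. The defining keratins KRT5, KRT14 and KRT15 were at 0 to 9 counts throughout. Between the lines 3 of 10 tested were higher in EnzaR and 6 lower, beside 29.8% and 28.6% of all genes. SFN (2.58) and the cadherin CDH3 (2.34) were among the higher, and TRIM29 (-2.04) and LAMB3 (-1.53) among the lower.

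Of the 9 luminal markers that are not keratins, 0 were called in siYAP1 (edgeR; 3 at an unadjusted p under 0.05, 0 with DESeq2), with a median of 0.04, beside 5.83% of all genes higher and 6.22% lower. Between the lines 5 were higher and 4 lower in EnzaR, beside 29.8% and 28.6% of all genes. The secreted kallikreins KLK3 (4.63) and KLK2 (3.41) and the protease TMPRSS2 (1.71) were higher. The 4 lower ones, HOXB13 (-0.66) among them, had log2 fold changes of -0.98 to -0.35. KLK3 was at 1182 CPM in siNC and 41.3 to 47.6 CPM in LNCaP libraries. The neuroendocrine marker SYP was called higher in siYAP1, at 4.42 and 4.13 CPM, against 2.24 and 2.43 CPM in siNC libraries (0.86, SE 0.271, edgeR adjusted p = 0.0433), in 4 of 12 alternatives.

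Genes whose pattern over the 8 libraries was among the most like that of KRT7, out of 10504 named genes with a mean of 5 CPM in an EnzaR group, were MAPKAPK5 (Pearson r 0.938 of log2 CPM) and IL27RA (0.907). Those most like KRT80 were CORO1C (0.961), DHRS7 (0.958) and PRKCD (0.953). The libraries share their line and treatment, so these coefficients are descriptions. A pseudocount of 0.1 was added before the log2, and the weight of the KRT7 count of 0 in EV-siNC on its coefficients was not tested. The sizes differed. MAPKAPK5 averaged 24.0 CPM in siYAP1 and 26.3 in siNC libraries, a smaller gap than that of KRT7. CORO1C averaged 41.0 CPM in siYAP1, 48.3 in siNC and 46.9 to 48.3 in LNCaP libraries, and PRKCD 69.4, 95.8 and 89.3 to 106, so that neither spanned the more than 3-fold gap of KRT80.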

How the data were processed

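The authors deposited, per the file headers, raw read counts per gene, FPKM, exonic lengths and coordinates for 8 libraries. Per the submitters' processing notes, cutadapt 1.9.1, HISAT2 2.0.1, HTSeq 0.6.1, DESeq2 and the build hg19 were used, without roles. The deposited FPKM equalled count over exonic length and column total within 0.0051 for all 463240 values and served only to compare genes within a library. EnzaR groups were compared on the deposited counts by the robust quasi-likelihood test of edgeR 4.0.16 (R 4.3.3), after filterByExpr and TMM scaling, with Benjamini-Hochberg adjustment over all genes tested, the lines in a fit of 6 groups over all 8 libraries. Both fits leave 2 residual degrees of freedom. Printed CPM are TMM-scaled over 8 libraries. Log2 ratios of single LNCaP libraries used a prior count of 2. The lowest chi-square per degree of freedom between libraries was 4.71, so none was a copy. Coding sequences came from GENCODE release 29 and were aligned with Biopython 1.88. The fits were tested on simulated data, with changes placed only in well counted genes and the same dispersion for every gene. That setting does not cover genes with counts as low as those of KRT7 and KRT19.

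Members, lists and tests were chosen with earlier results of these data known. List genes were named where they were called, averaged 5 CPM in either group and were among the 4 largest changes of their list. DSC3, SYP, KRT6C, KRT20, KRT75, HOXB13, DSP and PLEC between the lines, and markers set beside the keratins, were named after their values were seen. Alternatives were DESeq2 1.42.0, other scalings and filters, a replicate block, each EnzaR replicate left out, other LNCaP references and a GC and length correction per library (mgcv 1.9.3). Some genes and sequences that these rules would name are not reported here.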

Additional observations from a re-analysis of the deposited data

How the results depend on the processing

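KRT7 and KRT80, whose sign in siYAP1 against siNC was fixed by their selection, ranged over the 12 alternatives from -1.85 to -1.63 and from -1.99 to -1.78 on the log2 scale. Over all genes, where 872 were higher and 930 lower (edgeR), library totals gave 293 and 1416 (17.1% of calls higher, against 48.4%), DESeq2 gave 576 lower (60.8% higher), and the GC and length correction 484 and 237 (67.1% higher). Leaving out a replicate gave 15 to 940 higher and 11 to 829 lower, the lowest without siYAP1 replicate 1. The replicate block, whose numbers are not known to pair the libraries (correlation of deviations -0.172), gave 564 higher and 846 lower, and the crossed block, added after seeing the data, 1518 and 1302. Anchor genes called lower numbered 5, 3 with DESeq2, 1 after the GC and length correction and 0 to 3 without a replicate.

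Between the lines, keratins called higher numbered 2, but 1 with DESeq2 size factors and 0 with DESeq2, and 1 to 2 without a replicate. Those called lower numbered 1, but 2 with DESeq2 size factors, library totals, DESeq2 and the means of all EnzaR and LNCaP groups, and 1 to 2 without a replicate. The added call was KRT18, except for the group means, where it was KRT80 (-0.93). Those means include the siYAP1 libraries by which KRT80 was chosen, so its call there is a description and no test. KRT80 turned to 0.24 against EV-siNC. The replicate block kept 2 and 1.

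With a floor of 5 CPM, genes past 1.5-fold numbered 72 and 84 in EV-siYAP1 against EV-siNC, 49 and 92 in EV-siCII against EV-siNC, and 462 and 59 in EV-siNC against control, where the GC and length correction gave 35 and 48. The cause of these changes was not tested. KRT7, KRT19 and KRT80 rest on 0 to 157 counts per library, which limits their precision.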
